A study of Mus musculus with 6 samples.

Results

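The potassium and HCN channel gene family was followed in mouse cortical cultures with and without terahertz irradiation. Members were all genes whose array name starts with Kcn, followed by letters and a number, or with Hcn, followed by a number, which covers pore-forming subunits and the auxiliary subunits named with them. The array carried 96 such genes on 179 probes, among 37074 genes in all. Of these, 89 genes on 155 probes were measured, where a probe counts as measured if its signal was well above background on 3 or more of the 6 arrays, out of 26157 measured genes. The 7 members not measured were Kcna10, which was well above background on 2 arrays, Kcnk5, on 1 array, and Kcne4, Kcnj1, Kcnk18, Kcnmb1 and Kcnmb3, on 0 arrays. Just inside that limit, Kcnj8 was well above background on 4 arrays, and Kcnj15, Kcnk7, Kcne3, Kcng4 and Kcng3 on 5, while the other 83 members were on all 6. The files pair a transcript with each probe, and for 151 of the 179 probes that transcript was found in RefSeq, in each case under the same symbol.

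All cultures came from cerebral cortices of C57/B6 mouse embryos at embryonic day 16, dissociated and grown in Neurobasal medium with B27 plus. The 3 control cultures are labelled as controls, with nothing said of sham handling, and the 3 irradiated cultures received radiation at 3.1 THz for 3 hours daily on days 5 to 9 in vitro. All were collected on day 12 in vitro, and each RNA sample was labelled with Cy3 and hybridised to its own 1-colour array. Samples carry the numbers 1 to 3 in both groups, but no label tells whether a number is a separate dissection or a dish, or whether embryos were pooled. The p-values thus reflect only the scatter of these samples, part of which may be technical.

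Potassium channels let potassium leave or enter cells and so set the resting potential, end the action potential and space successive spikes. Voltage-gated members of the Kcna to Kcnd, Kcnq and Kcnh groups open on depolarisation, Kcnj members rectify inward, Kcnk members carry a leak, and Kcnm, Kcnn and Kcnt members open with internal calcium or sodium. HCN channels open on hyperpolarisation and pass a mixed sodium and potassium current that paces firing and shapes dendritic input. In cortex, neurons and glia use different sets: Kcnj10 is the main inward rectifier of astrocytes, while Kcnk13 and Kcnn4 are known from microglia.

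All spots are 60-base probes, so each value refers to 1 short stretch of a transcript. The middle 30 bases of the probes on which the comparisons below turn are given here from the array files, 5′ to 3′ as on the array, with the whole probe's position in build mm9. The first 3 belong to the genes that differed at least 1.5-fold at an unadjusted p under 0.05. The others belong to genes whose probes differed from each other. Whether a probe lies in an exon, an intron or a UTR was not analysed here, since no annotation of that build was used.
Kcnd1 at chrX:7413570-7413629 on the plus strand: actccgtgcctcctccctgagactgtcaag
Kcnk15 at chr2:163684551-163684610 on the plus strand: cacagcagcccagacagaccccgagcccgg
Kcnv2 at chr19:27397662-27397719 on the plus strand: ctgtgtgatgactacgaggcaccagacaga
Kcnh7, 3′-most probe, at chr2:62541102-62541161 on the minus strand: gcgtcatcagagcttgaccctcggcaaagg
Kcnh7, next upstream, at chr2:62625189-62625248 on the minus strand: gtaccttatgaaattcctttatcaaaactc
Kcnh7, farthest upstream, at chr2:63019569-63019628 on the minus strand: acagtttataaaaacctctacaactgagtg
Kcnq3, 3′-most probe, at chr15:65826897-65826956 on the minus strand: caagtggcttcagcatctcacaagacagag
Kcnq3, upstream probe, at chr15:66114648-66114707 on the minus strand: catagaattatgtgtgctgctttgagctga
Kcnab1, 3′-most probe, at chr3:65182004-65182063 on the plus strand: taactttccatctattcactgtaaatgtaa
Kcnab1, upstream probe, at chr3:65162678-65162737 on the plus strand: ctatagctaggtatggcttgggataggctt
Kcnj2, 3′-most probe, at chr11:110938023-110938082 on the plus strand: ctaaagtcttcctattgtactgcacaaacc
Kcnj2, upstream probe, at chr11:110936203-110936262 on the plus strand: ctaatggtattacaccctaatatgccatta

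The arrays differed in brightness. The 75th percentile of the processed signal ran from 476 on control 1 to 1291 on irradiated 2, and 64.9% to 74.7% of spots were well above background, with control 1 the lowest in both. No spot was saturated. Markers of the labelled cells were present, with 8 of 8 neuronal markers measured, and so were markers of other cells, with 8 of 8 for astrocytes, 8 of 8 for oligodendrocytes, 10 of 10 for microglia and 6 of 8 for vascular cells, where Cldn5 and Tek were not measured. Levels below are log2 signal minus the array's 75th percentile, and differences are irradiated minus control on the log2 scale. With 3 arrays per group, the number of arrays limits the precision, and a lower level in RNA from whole cultures cannot be told apart from fewer cells that express the gene.

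The question put to irradiated and control cultures was whether exposure shifts the messages of these channels. By limma, 0 of the 89 genes reached an adjusted p under 0.05, as did 0% of all genes. The smallest adjusted p of a member was 0.552, and 3 members had an unadjusted p under 0.05, against 8.25% of all genes. All 3 also differed at least 1.5-fold and were lower in irradiated cultures: Kcnd1, Kcnk15 and Kcnv2. In all genes, 7.53% met both criteria in either direction, 2.57% higher and 4.96% lower, so the members' count was not above the background. The balance over all genes, 672 higher and 1298 lower, was 914 and 922 when the percentile was taken over probes detected on all arrays. The members' count of 3 rests on few arrays, since it was 13 without control 3, with 6 higher and 7 lower, but 1 without control 1 and 0 without irradiated 1, without irradiated 2 or without both arrays numbered 1. The share of all genes moved with it: without control 3 it was 15.6%, against 14.6% of the members, and without control 1 it was 4.29%, without irradiated 1 2.94%, without irradiated 2 2.73% and without both arrays numbered 1 3.39%.

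The family as a whole sat close to the median of the array. Its median difference was -0.07, against -0.10 for all genes, and 50 of 89 members lay below 0, or 56.2%, against 62.2% of all genes. After quantile normalisation the family median was 0.0054 and that of all genes -0.05, so the side of 0 on which the family lies follows the scaling. By subfamily, the median difference was -0.08 over 16 genes of the Kcna to Kcnd group, -0.21 over 5 Kcnq genes, -0.08 over 14 Kcnj genes, -0.06 over 12 Kcnk genes, -0.05 over 4 Kcnip genes, 0.02 over 3 Kcnab genes, -0.18 over 4 Hcn genes and -0.07 over the other 31. After quantile normalisation the medians of the Kcna to Kcnd group and of Kcnip turned to above 0, at 0.06 and 0.05, and that of Kcnab stayed above 0, at 0.08. The 95% intervals had a median reach of 0.67 to each side. For 12 members the whole interval at the gene's brightest probe lay within a 1.5-fold difference either way, or 13.5%, against 12.1% of all genes. For 50 members it lay within a 2-fold difference, or 56.2%, against 56.2% of all genes.

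**Figure D1:**
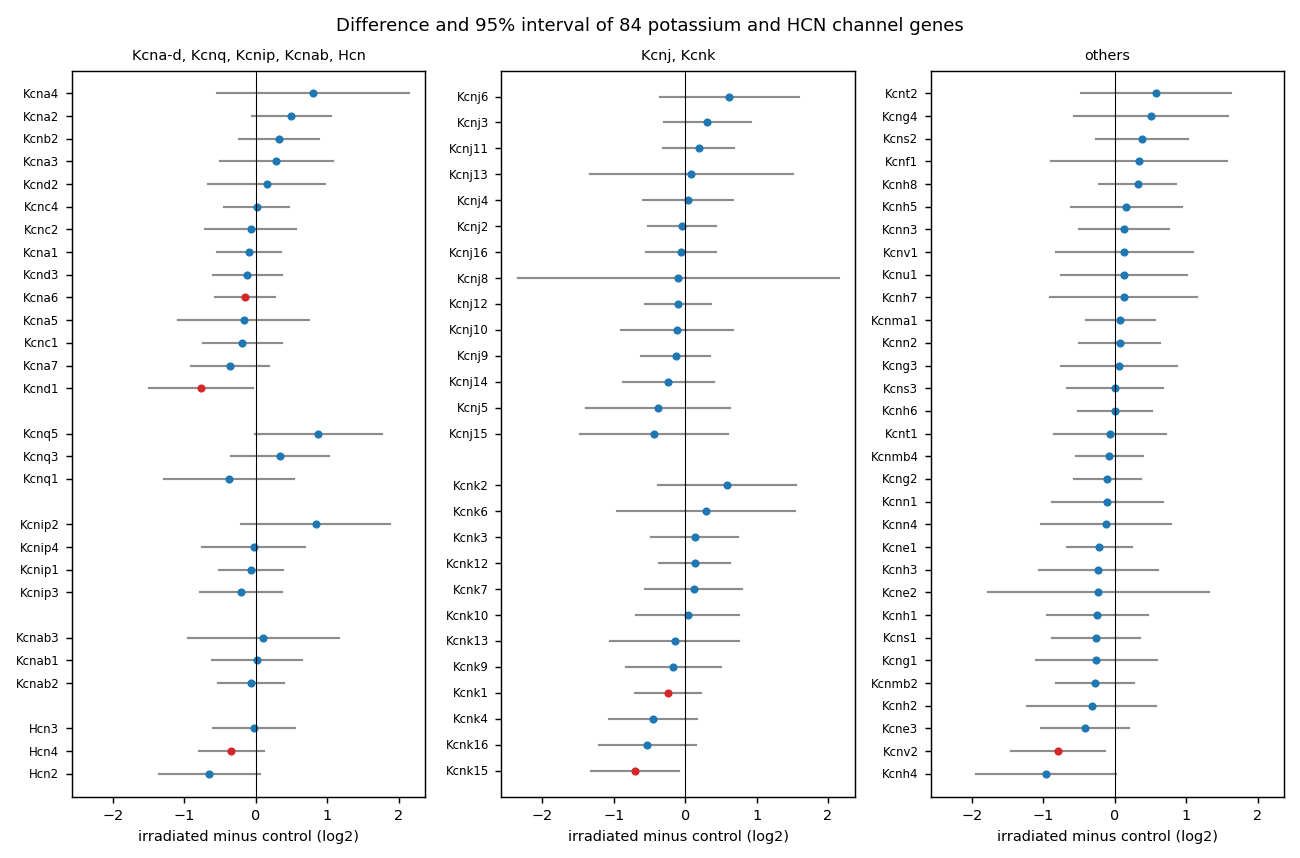
The difference of each of 84 measured genes, irradiated minus control on the log2 scale, with its 95% interval from limma, ordered by size within each subfamily; red points mark genes whose irradiated values all lie below the controls. Most intervals cross 0, the differences run from -0.96 for Kcnh4 to 0.88 for Kcnq5, and the 3 intervals that end below 0 belong to Kcnd1, Kcnk15 and Kcnv2.

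In 7 members all 3 irradiated values lay below all 3 controls, among them Kcnd1, Kcna6, Kcnk15, Kcnk1, Hcn4 and Kcnv2, and in 0 members all lay above. Among all genes, 9.19% lay wholly below and 4.42% wholly above, so neither count exceeded the background. Kcna6, a voltage-gated channel of axons, is named here after its values were seen. Its levels were 4.05, 4.19 and 4.15 in controls and 3.87, 4.03 and 4.03 in irradiated cultures, and its difference was small, at -0.15 (95% interval -0.58 to 0.27). Both its probes were below 0, the other at -0.37, but after quantile normalisation its difference was above 0, at 0.05.

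**Figure D2:**
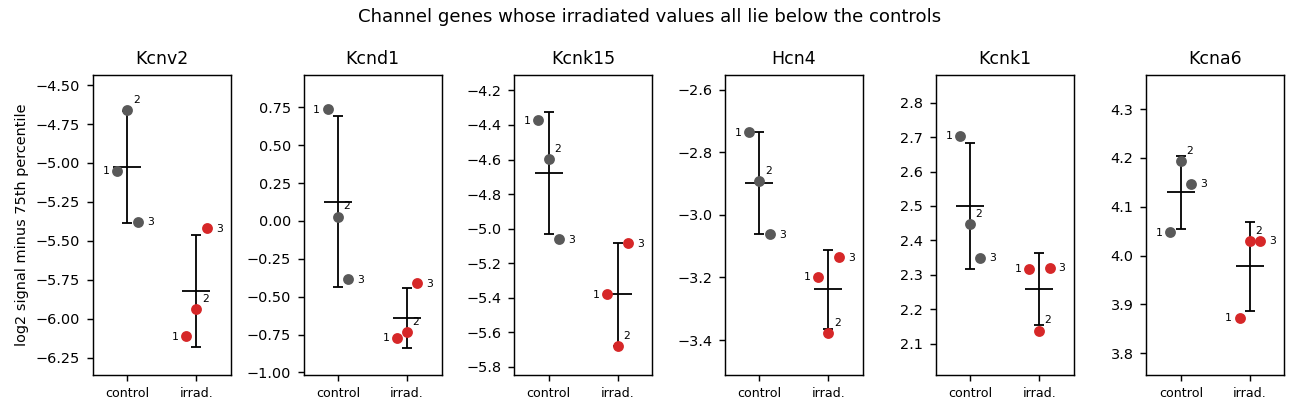
Log2 level minus the array's 75th percentile on each array for 6 genes whose irradiated values (red) all lie below the controls (grey); numbers mark the array number, bars the group mean and SD, and each panel has its own axis. The gap between the groups is narrow in every panel: for Kcnd1 the lowest control is at -0.38 and the highest irradiated value at -0.41.

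Among the voltage-gated channels of the Kcna to Kcnd group, the gene with the smallest p was Kcnd1, a subunit of the fast A-type current that delays spiking. Its levels were 0.74, 0.029 and -0.38 on controls 1 to 3 and -0.77, -0.74 and -0.41 on irradiated 1 to 3. Controls spread over more than 1 log2 unit, with control 3 next to the irradiated values, and the difference was -0.77 (95% interval -1.498 to -0.035), with an unadjusted p of 0.042 and an adjusted p of 0.552 in limma. With the replicate number as a block its unadjusted p was 0.061, and without control 1 its difference was -0.46. The 3 probes of Kcnd1 were all below 0, from -0.77 to -0.13. Its relatives Kcnd2 and Kcnd3, which carry the A-type current of dendrites and interneurons, differed by 0.15 (95% interval -0.66 to 0.97) and -0.12 (95% interval -0.60 to 0.37). Levels of Kcnd2 were 2.15, 2.55 and 3.35 in controls and 2.47, 2.90 and 3.14 in irradiated cultures, and those of Kcnd3 3.03, 2.58 and 2.94 in controls and 2.79, 2.63 and 2.79 in irradiated cultures.

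Kcna1 and Kcna2 encode the low-threshold channels of axons. Kcna1 had levels of 3.87, 3.95 and 4.22 in controls and 3.96, 3.95 and 3.85 in irradiated cultures, a difference of -0.094 (95% interval -0.55 to 0.36). Kcna2 had levels of -0.88, -0.71 and -0.21 in controls and 0.054, -0.25 and -0.11 in irradiated cultures. The groups overlapped, and its difference of 0.50 (95% interval -0.059 to 1.06) did not pass the test (unadjusted p 0.072, adjusted p 0.552 in limma). Kcna7, a channel known from muscle, had levels of 0.39, -0.057 and -0.30 in controls and -0.32, -0.43 and -0.27 in irradiated cultures, a difference of -0.35 (95% interval -0.90 to 0.19). Control 1 was its highest array and the other 5 lay close together. Kcnc1, a fast delayed rectifier of quickly firing interneurons, had levels of 1.12, 1.15 and 1.26 in controls and 0.66, 0.94 and 1.37 in irradiated cultures, a difference of -0.19 (95% interval -0.74 to 0.37). The highest difference in this group was that of Kcna4, at 0.80. It rests on control 1, whose level stood at -1.69 while the other 5 arrays ran from -0.02 to 0.75.

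The cytoplasmic partners of these channels did not pass the test either. Kcnip genes encode the calcium-binding proteins that bring Kcnd channels to the surface. Kcnip2 had levels of -2.62, -1.69 and -0.76 on controls 1 to 3 and -0.93, -0.63 and -1.002 on irradiated 1 to 3, a difference of 0.84 (95% interval -0.21 to 1.89) with an adjusted p of 0.558 in limma. Control 3 lay above irradiated arrays 1 and 3, so the groups overlapped, and the low values were those of controls 1 and 2. Kcnip3, also known as the transcriptional repressor DREAM, had levels of 4.72, 4.17 and 4.11 in controls and 4.35, 3.96 and 4.08 in irradiated cultures, a difference of -0.20 (95% interval -0.77 to 0.37), and Kcnip1 differed by -0.068 (95% interval -0.52 to 0.38). Kcnip4 differed by -0.026 (95% interval -0.75 to 0.70). After quantile normalisation all 4 Kcnip genes were above 0, with Kcnip2 at 0.77. Kcnab genes encode the beta subunits of Kcna channels, and their differences were 0.016 (95% interval -0.61 to 0.65) for Kcnab1, -0.068 (95% interval -0.53 to 0.39) for Kcnab2 and 0.11 (95% interval -0.95 to 1.17) for Kcnab3.

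Kcnq genes carry the M current, a slow brake on repetitive firing that acetylcholine switches off. None of the 5 members passed the test. Kcnq3, a neuronal subunit, had levels of -2.83, -2.92 and -1.96 in controls and -2.15, -2.32 and -2.21 in irradiated cultures, a difference of 0.34 (95% interval -0.34 to 1.02). Kcnq5, another neuronal member, had levels of -0.47, 0.999 and 0.45 on controls 1 to 3 and 1.19, 0.99 and 1.44 on irradiated 1 to 3. Control 1 was the lowest and controls and irradiated cultures overlapped at control 2. Its difference of 0.88 (95% interval -0.0040 to 1.76) had an adjusted p of 0.552 in limma, and its 4 probes ran from -0.66 to 0.88. Kcnq1, the cardiac member, differed by -0.38 (95% interval -1.28 to 0.53), and its irradiated 3 value of -4.72 stood below the other 5 arrays, which ran from -3.62 to -3.27.

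HCN channels were measured with all 4 members, and none passed the test. Hcn2, widespread in brain, had levels of 5.02, 4.26 and 3.98 on controls 1 to 3 and 3.72, 3.60 and 3.98 on irradiated 1 to 3. Controls 1 and 2 were the highest arrays, while control 3 equalled irradiated 3 to 2 decimals, and the difference of -0.65 (95% interval -1.36 to 0.058) had an adjusted p of 0.552 in limma. Hcn4, the slow pacemaker of heart and thalamus, had levels of -2.74, -2.89 and -3.06 in controls and -3.20, -3.38 and -3.14 in irradiated cultures. The groups did not overlap, and the difference was -0.34 (95% interval -0.80 to 0.12). Hcn3 differed by -0.024 (95% interval -0.60 to 0.55) and was above 0 after quantile normalisation, at 0.03. Pex5l, whose product TRIP8b controls the surface supply of HCN channels, differed by 0.057 (95% interval -0.79 to 0.90).

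Inward rectifiers fall into those gated by G proteins, those closed by ATP and those of glia. Kcnj3 and Kcnj6 are joint subunits of the G-protein-gated channel that inhibits neurons downstream of GABA-B and other receptors. Kcnj6 had levels of -4.33, -3.21 and -2.93 on controls 1 to 3 and -3.39, -2.49 and -2.74 on irradiated 1 to 3. In each numbered pair the irradiated array was the higher, and its difference of 0.62 (95% interval -0.36 to 1.59) had an unadjusted p of 0.178 without and 0.035 with the replicate number as a block in limma. In the block fit the smallest adjusted p of a member was 0.508, and 3 members met the 1.5-fold criterion at an unadjusted p under 0.05, Kcnj6 higher and Kcnk15 and Kcnv2 lower, against 7.33% of all genes. Kcnj3 had levels of -0.40, -0.42 and 0.31 in controls and 0.18, -0.038 and 0.27 in irradiated cultures, a difference of 0.31 (95% interval -0.30 to 0.92).

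Kcnj11 and Kcnj8 encode the pores of ATP-sensitive channels, the former in neurons and the latter in vessel-associated cells and microglia. Kcnj11 differed by 0.19 (95% interval -0.31 to 0.68). Kcnj8 was dim, well above background on 2 of 3 arrays in each group, and had the widest interval of the family, with a difference of -0.099 (95% interval -2.35 to 2.15). The glial rectifier Kcnj10 had levels of 5.66, 5.11 and 4.69 in controls and 5.53, 4.97 and 4.62 in irradiated cultures, a difference of -0.11 (95% interval -0.90 to 0.67), and its partner subunit Kcnj16 differed by -0.061 (95% interval -0.55 to 0.43). Kcnj15, another inward rectifier, had levels of -4.85, -6.60 and -5.41 in controls and -6.04, -6.38 and -5.76 in irradiated cultures, a difference of -0.44 (95% interval -1.48 to 0.60). The rest of the group lay between -0.38 for Kcnj5 and 0.084 for Kcnj13.

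Among the leak channels, Kcnk15 had the smallest p. Its product is a relative of the acid-sensitive leak channels that gives no current by itself. Its levels were -4.37, -4.60 and -5.06 on controls 1 to 3 and -5.38, -5.68 and -5.08 on irradiated 1 to 3. The lowest control, control 3 at -5.06, stood next to irradiated 3 at -5.08, and the difference was -0.70 (95% interval -1.32 to -0.083), with an unadjusted p of 0.031 and an adjusted p of 0.552 in limma. Its second probe differed by -0.41. Kcnk16, a channel of pancreatic islets, had levels of -3.88, -4.10 and -4.88 in controls and -4.96, -4.79 and -4.72 in irradiated cultures, a difference of -0.53 (95% interval -1.21 to 0.15). The stretch-gated and lipid-gated channels differed by -0.45 (95% interval -1.06 to 0.16) for Kcnk4, 0.59 (95% interval -0.38 to 1.56) for Kcnk2 and 0.036 for Kcnk10. Levels of Kcnk4 were 0.12, -0.47 and -0.44 in controls and -0.94, -0.83 and -0.37 in irradiated cultures, and those of Kcnk2 were -3.88, -2.68 and -2.40 in controls and -2.70, -1.99 and -2.52 in irradiated cultures. In both genes control 1 stood apart from the other 5 arrays, above them for Kcnk4 and below them for Kcnk2. Kcnk1, a weak leak channel of astrocytes and neurons, had levels of 2.70, 2.45 and 2.35 in controls and 2.32, 2.14 and 2.32 in irradiated cultures without overlap and a difference of -0.24 (95% interval -0.70 to 0.22). The other measured Kcnk genes lay between -0.17 for Kcnk9 and 0.29 for Kcnk6.

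The remaining members include the calcium-activated and sodium-activated channels, the Kcnh channels and the modifiers. Kcnma1, the pore of the large-conductance calcium-activated channel, had levels of 4.18, 3.94 and 4.42 in controls and 4.27, 4.14 and 4.37 in irradiated cultures, a difference of 0.078 (95% interval -0.41 to 0.57). Its brain beta subunit Kcnmb4 differed by -0.077 (95% interval -0.55 to 0.39). Both intervals lay within 1.5-fold, but only at the brightest probe of each gene. The probes of Kcnma1 ran from -0.71 (95% interval -1.60 to 0.18) to 0.13. The other probe of Kcnmb4 gave 0.68 (95% interval -0.36 to 1.72). Kcnn2, which carries the small-conductance current of the afterhyperpolarisation, differed by 0.066 (95% interval -0.50 to 0.63). Its relative Kcnn4 differed by -0.12 (95% interval -1.03 to 0.79), and Kcnt1, the sodium-activated channel, by -0.072 (95% interval -0.86 to 0.71). Kcnh1, a slow delayed rectifier of the ether-a-go-go group, differed by -0.24 (95% interval -0.94 to 0.46).

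Kcnv2, Kcnh4 and Kcne3 had the smallest p in this group. Kcnv2 encodes a silent subunit that alters other voltage-gated channels and is best known from photoreceptors. Its levels were -5.05, -4.66 and -5.38 on controls 1 to 3 and -6.11, -5.94 and -5.42 on irradiated 1 to 3. Control 3 and irradiated 3 lay next to each other, at -5.38 and -5.42, and the difference was -0.79 (95% interval -1.45 to -0.14), with an unadjusted p of 0.024 and an adjusted p of 0.552 in limma. Kcnh4, a voltage-gated channel of the forebrain, had levels of 1.12, 0.21 and -0.53 in controls and -0.88, -0.84 and -0.37 in irradiated cultures. Controls 1 and 2 were the highest arrays and control 3 lay among the irradiated ones. Its difference of -0.96 (95% interval -1.94 to 0.013), of which the second probe gave -0.75, did not pass (unadjusted p 0.052, adjusted p 0.552 in limma). Kcne3, a small membrane partner of Kcnq channels, had levels of -5.76, -5.39 and -5.12 in controls and -6.20, -5.64 and -5.68 in irradiated cultures, a difference of -0.42 (95% interval -1.03 to 0.20). The rest of the group lay between -0.33 for Kcnh2 and 0.58 for Kcnt2.

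Proteins that assemble with or place these channels but carry other names gave a like picture. Of 15 such genes, 12 were measured, while Abcc9, Lrrc26 and Lrrc52 were not. None passed the adjusted threshold or met the 1.5-fold criterion at an unadjusted p under 0.05 in limma, 7 of 12 lay below 0, and the median difference was -0.10. Amigo1, an adhesion protein bound to voltage-gated channels, differed by -0.48 (95% interval -1.15 to 0.19). Dpp6 and Dpp10, which speed Kcnd channels, differed by -0.20 (95% interval -0.72 to 0.31) and -0.087 (95% interval -0.60 to 0.42). Cntnap2, which gathers Kcna channels beside the node, differed by -0.16 (95% interval -0.71 to 0.39), and Lgi1, a secreted partner of Kcna channels, by 0.35 (95% interval -0.44 to 1.14).

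More channel genes had a small p for the array number, which both groups share, than for irradiation. An F test of the number in limma, fitted with group, gave 0 of 89 members at an adjusted p under 0.05, where 0.608% of all genes passed. At an unadjusted p under 0.05 it gave 22 members, or 24.7%, against 15.9% of all genes. The smallest adjusted p was 0.098, for Kcnab3. That count of 22 and its margin over all genes changed with the array left out. Without control 1 it was 12, or 13.5% against 10.2% of all genes, and without irradiated 2 it was 11, or 12.4% against 11.8%. Without control 2 it was 7, or 7.87%, below the 8.98% of all genes. Without irradiated 3 it was 26, or 29.2% against 17.4%, and without control 3 it was 20, or 22.5% against 14.8%. Without irradiated 1 it was 22, or 24.7% against 21%. What the numbers stand for is not stated in the labels.

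Of these 22 genes, each read at its brightest probe, 15 were highest on the arrays numbered 1, by the mean of both arrays of a number. In 8 of them the arrays numbered 2 were the lowest, among them Kcnab3, Kcnf1, Kcnh7, Kcnip4, Kcnj5, Kcnk6 and Kcns3. Kcnab3, a beta subunit, had levels of -0.040, -1.33 and -0.997 on controls 1 to 3 and 0.11, -1.20 and -0.95 on irradiated 1 to 3. The arrays numbered 1 stood about 1 log2 unit above the others in both groups, with an unadjusted p of 0.0029 for the number in limma. The silent subunits Kcnf1 and Kcns3 ran the same way, with ranges of 1.52 and 0.68 between the mean levels of the 3 numbers. Kcnip4 had levels of 2.67, 1.73 and 2.11 in controls and 2.52, 1.82 and 2.09 in irradiated cultures. Kcnh7, an ether-a-go-go-related channel of neurons, had levels of -3.52, -4.97 and -3.94 in controls and -3.43, -4.55 and -4.09 in irradiated cultures, and Kcnk6, a relative of Kcnk1, had levels of -3.57, -5.04 and -4.12 in controls and -2.92, -4.55 and -4.39 in irradiated cultures. Dimmer probes of these 2 genes did not share the order. The next upstream probe of Kcnh7 was lowest on number 1 in both groups, at -6.93 on control 1 and -4.80 on irradiated 1. At the farthest upstream probe of Kcnh7 control 1 was also the lowest array. The upstream probe of Kcnk6 was highest on number 2 and lowest on number 3 in both groups. Immediate early genes, a class induced when neurons fire, were listed after the values were seen. The mean of that list had the same order, with levels relative to the 6-array mean of 1.05, -0.61 and -0.099 in controls and 0.82, -1.08 and -0.069 in irradiated cultures. Fos, Arc, Nr4a1 and Npas4 had that order in both groups. Among the controls, Egr1 was highest on control 3, and Fosb and Junb were lowest there. The part of immediate early genes in the channel pattern was not tested.

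In 7 other genes the arrays numbered 1 were the highest and those numbered 3 the lowest: Kcna5, Kcnh2, Kcnj10, Kcnj8, Kcnk13, Kcnn4 and Kcnt1. The astrocyte rectifier Kcnj10 ran in that order in both groups, at mean levels of 5.59, 5.04 and 4.66 for numbers 1 to 3 (unadjusted p 0.014 for the number in limma). Its partner subunit Kcnj16 did not, and was highest on number 2 in both groups. Kcnj16 had levels of 0.054, 0.34 and -0.12 in controls and 0.050, 0.14 and -0.11 in irradiated cultures. Its unadjusted p for the number in limma was 0.309. Kcnk1, the weak leak channel of astrocytes and neurons, had mean levels of 2.51, 2.29 and 2.33 for numbers 1 to 3. For Kcnk1 the unadjusted p for the number in limma was 0.590. Kcnk13, the leak channel of microglia, had levels of -1.82, -2.59 and -2.59 in controls and -1.81, -2.50 and -3.13 in irradiated cultures, and Kcnn4, the calcium-activated channel of microglia, had levels of -3.17, -3.92 and -4.54 in controls and -3.54, -4.11 and -4.35 in irradiated cultures. Kcnj8 varied most in the family, with levels of -5.13, -5.73 and -8.74 on controls 1 to 3 and -5.69, -6.48 and -7.72 on irradiated 1 to 3. It was well above background on only 4 of 6 arrays. Its -8.74 on control 3 lay at the level of the Kcnmb1 probes there, at -8.73 and -8.74, which were well above background on 0 arrays. The range of Kcnj8 thus rests in part on a value at the floor. Kcna5, a delayed rectifier, had levels of -2.79, -3.63 and -3.505 in controls and -2.75, -3.60 and -4.07 in irradiated cultures. Kcnt1 had levels of -0.95, -1.54 and -2.16 in controls and -1.36, -1.59 and -1.91 in irradiated cultures.

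Marker lists of other cells moved with the same numbers. Relative to the mean of the 6 arrays, the astrocyte list had mean levels of 0.79, -0.15 and -0.50 in controls and 0.65, -0.20 and -0.60 in irradiated cultures, and the microglia list 1.38, -0.52 and -1.20 in controls and 1.73, -0.44 and -0.95 in irradiated cultures. The oligodendrocyte list, at 1.54, -1.36 and -0.12 in controls and 1.42, -1.19 and -0.29 in irradiated cultures, was lowest on the arrays numbered 2. The size of that swing leans most on Mobp, at 1.29, -8.04 and -5.62 in controls and 1.32, -7.78 and -5.89 in irradiated cultures. Its -8.04 on control 2 lay at the level of Kcnj1 there, at -8.03, a gene well above background on 0 arrays. Mbp moved less, and Mog was lowest on control 3 among the controls. The vascular list had mean levels of 0.49, 0.20 and -0.49 in controls and 0.24, 0.28 and -0.71 in irradiated cultures. The interneuron list was at 0.86, -0.14 and -0.31 in controls and 0.25, -0.35 and -0.29 in irradiated cultures. At an unadjusted p under 0.05 for the number in limma were 6 of 8 astrocyte, 6 of 8 oligodendrocyte, 9 of 10 microglia, 4 of 6 vascular, 3 of 7 interneuron and 0 of 8 neuron markers. The neuron list ran from 0.048 to 0.16 in controls and from -0.32 to 0.20 in irradiated cultures, and 0 of 5 markers of oligodendrocyte precursors had such a p. Between irradiated and control cultures, no gene of these lists passed the adjusted threshold. The part of these cells in the channel genes' levels was not tested.

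A smaller set was not highest on the arrays numbered 1. Kcnd2, Kcnj6 and Kcnk10 were, by the mean of both arrays of a number, lowest on number 1 and highest on number 3. Mean levels for Kcnd2 were 2.31, 2.72 and 3.24 for numbers 1 to 3 (unadjusted p 0.033 for the number in limma). For Kcnj6 the highest array was irradiated 2, at -2.49, against -2.74 on irradiated 3. Kcnk10, a stretch-gated leak channel, had levels of 0.52, 1.16 and 1.38 in controls and 0.70, 0.98 and 1.47 in irradiated cultures. By the mean of both arrays of a number, Kcnh3, Kcnn1 and Kcnv1, genes of forebrain neurons, were lowest on number 2 and highest on number 3. Kcnv1, a silent subunit of cortex, had levels of 0.20, -0.83 and 0.44 in controls and 0.49, -0.53 and 0.25 in irradiated cultures. Its means for numbers 1 and 3 lay close together, and irradiated 1 was its highest array. Kcnu1, best known from sperm, was the last of the 22 and was lowest on the arrays numbered 1. In the whole family, the controls and the irradiated cultures had the same number highest in 44 of 89 genes, or 49.4%, against 41.0% of all genes. They had the same number lowest in 51 members, or 57.3%, against 45.3%.

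**Figure D3:**
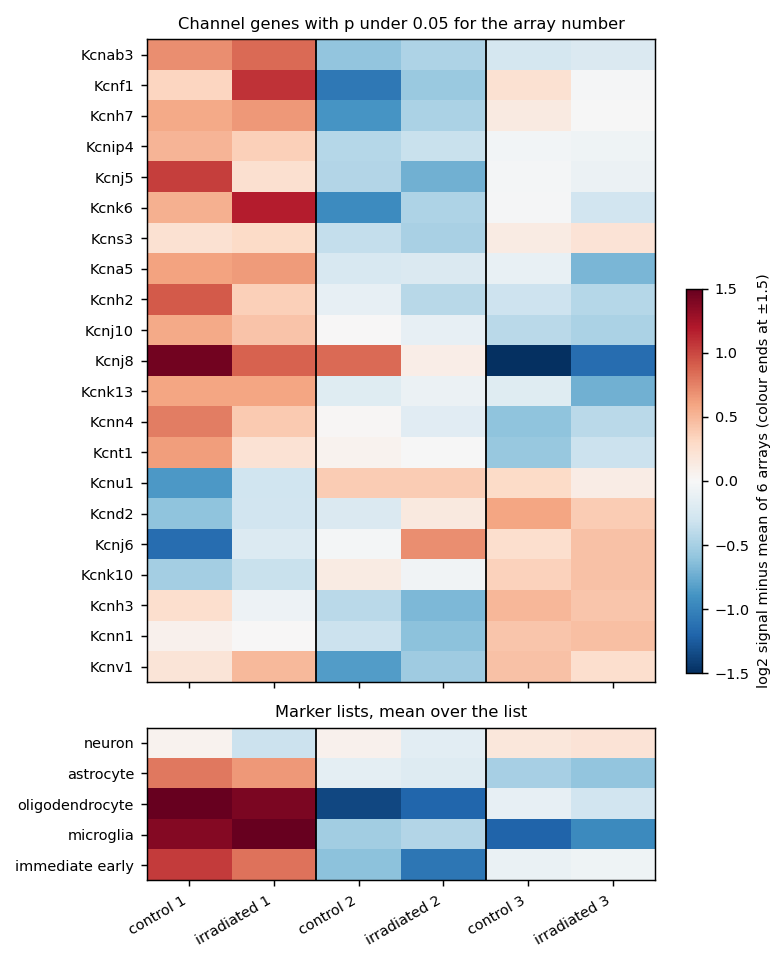
Log2 level minus the mean of the 6 arrays for 21 channel genes with an unadjusted p under 0.05 for the array number, with arrays of the same number side by side, and below them the mean over 5 marker lists; the colour scale ends at 1.5 either way. In 14 of the genes the mean level was highest on the arrays numbered 1, and the astrocyte, oligodendrocyte, microglia and immediate early lists are red there in both groups, while the neuron list stays pale.

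Several members lie next to each other in the genome, and neighbours did not share these patterns throughout. On chromosome 6 the minus-strand probes of Kcna5 (chr6:126482573-126482632), Kcna1 (chr6:126586524-126586583) and Kcna6 (chr6:126658424-126658483) follow one another in build mm9. Between numbers, mean levels ranged over 1.02 for Kcna5, 0.12 for Kcna1 and 0.15 for Kcna6, with unadjusted p of 0.021, 0.863 and 0.722 in limma. On chromosome 1 the probes of Kcnj9 (chr1:174250840-174250896), a neuronal G-protein-gated subunit, and Kcnj10 (chr1:174304062-174304121) lie on opposite strands. Their ranges between numbers were 0.28 and 0.93. On chromosome 11 Kcnj16 (chr11:110889223-110889282) lies before Kcnj2 (chr11:110938023-110938082), and their ranges were 0.35 and 0.28. On chromosome 3 Kcna3 (chr3:106840925-106840984) lies before Kcna2 (chr3:106909700-106909759), with ranges of 0.55 and 0.32. Whether neighbours differ from each other was not tested.

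Different probes of a channel gene did not always give the same difference. Of 42 members with several measured probes, 19 had probes on both sides of 0, or 45.2%, against 54.2% of all such genes. Each of the 155 member probes was also tested on its own in limma, and 0 passed the adjusted threshold, with a smallest adjusted p of 0.539. At an unadjusted p under 0.05 and at least 1.5-fold, 5 probes were higher, in Kcnh7, Kcnq3, Kcnj2, Kcnc1 and Kcnn2, and 3 lower, those of Kcnd1, Kcnk15 and Kcnv2 already described. The Kcnj2 probe passed the filter through the irradiated arrays, as it was well above background on 1 of 3 controls and on 3 of 3 irradiated arrays. Among all probes 4.46% were higher and 3.78% lower. None of the 5 higher probes was its gene's brightest, so none entered the gene counts.

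In Kcnh7 the farthest upstream probe had levels of -7.82, -5.60 and -5.59 on controls 1 to 3 and -3.91, -4.03 and -4.94 on irradiated 1 to 3, with a difference of 2.04 (95% interval 0.59 to 3.496), and all 3 irradiated values lay above the controls. On control 1 that probe was not well above background. The next probe toward the 3′ end differed by 0.95 (95% interval -0.32 to 2.22), and the 3′-most probe, with levels already given, by 0.12 (95% interval -0.90 to 1.15). In Kcnq3 the upstream probe had levels of -7.82, -5.62 and -5.85 in controls and -4.42, -4.84 and -4.74 in irradiated cultures, a difference of 1.76 (95% interval 0.47 to 3.05), where the 3′-most probe gave 0.34. In both genes control 1 was the lowest array at the upstream probe and was not well above background there, and controls 2 and 3 also lay below the irradiated values. Without control 1 the upstream differences were smaller, at 1.30 for the farthest and 0.27 for the next probe of Kcnh7, against 0.44 at its 3′-most probe, and at 1.07 for Kcnq3, against 0.21.

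In Kcnab1 the upstream probe had levels of -7.00, -3.05 and -3.23 in controls and -2.45, -2.60 and -2.56 in irradiated cultures, a difference of 1.89 (95% interval -0.37 to 4.15), while the 3′-most probe gave 0.016. Control 1 stood far below the other 5 arrays there, and the probe was not well above background on it. Without control 1 the upstream difference of Kcnab1 was 0.60, against 0.097 at the 3′-most probe. In Kcnj2, the classical strong inward rectifier, the upstream probe had levels of -7.31, -6.40 and -5.79 in controls and -5.24, -5.44 and -5.71 in irradiated cultures, a difference of 1.04 (95% interval 0.14 to 1.94), and was well above background on 1 of 3 controls and on 3 of 3 irradiated arrays, where the 3′-most probe gave -0.045. Without control 1 its upstream difference was 0.63. In Kcnc1 the farthest upstream probe differed by 0.80 (95% interval 0.12 to 1.47) and the middle and 3′-most probes by -0.19 and 0.22. Kcnn2 had 3 upstream probes at 0.49, 0.71 and 0.54, against 0.07 at its 3′-most probe. Without control 1 these 3 were at 0.51, 0.50 and 0.20, against 0.13.

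These genes were picked out by their values, and the family did not share the pattern. Over 66 upstream probes in 42 member genes, the upstream difference minus that of the 3′-most probe had a median of 0.0075 and was above 0 in 34. In other genes the median over 13979 upstream probes was 0.15, and 64.0% were above 0. Without control 1 the medians were 0.0050 and 0.13. By distance, the members' median was 0.31 over 19 probes that lie 10 to 100 kb upstream and -0.22 over 9 probes more than 100 kb upstream, where other genes had 0.20 and 0.33. Position was not separated from brightness, since the brightest probe was the 3′-most in 29 of the 42 members.

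**Figure D4:**
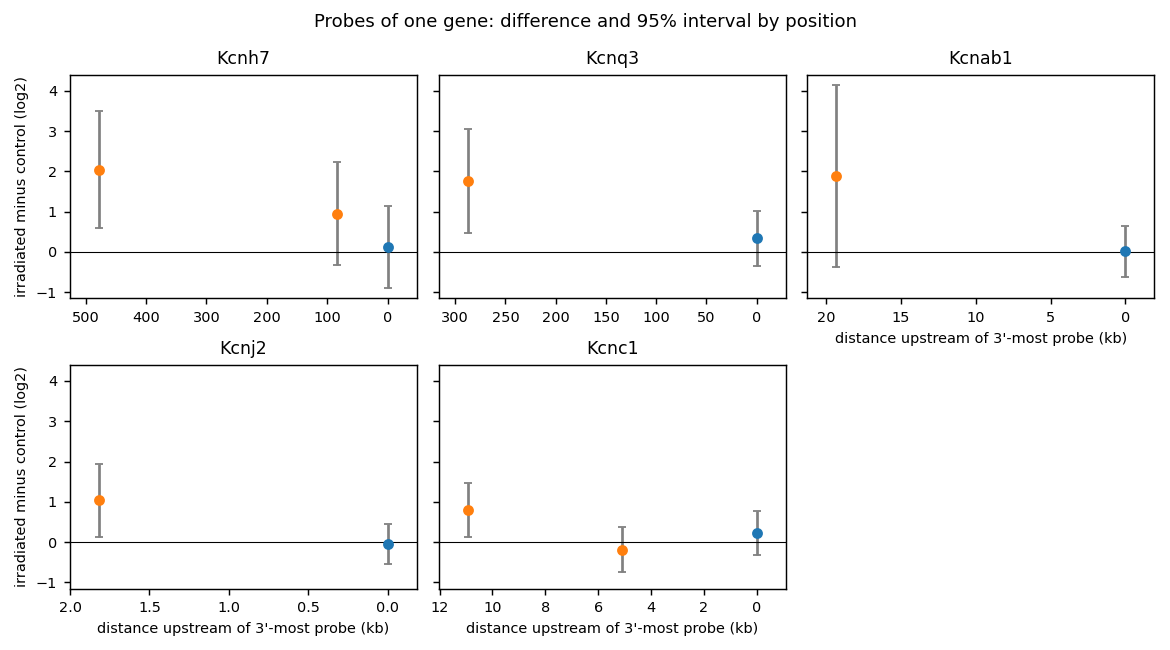
The difference of each probe, irradiated minus control on the log2 scale, with its 95% interval, against its distance in kb upstream of the gene's 3′-most probe in 5 channel genes chosen after their values were seen; blue marks the 3′-most probe and orange the others. In each of the 5 genes the farthest upstream probe lies above the 3′-most one, which ranges from -0.045 for Kcnj2 to 0.34 for Kcnq3. The upstream Kcnj2 probe was well above background on 1 of 3 controls and on 3 of 3 irradiated arrays.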

How the data were processed

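Per the submitters' processing notes, the 6 Agilent 1-colour arrays (3 per group) were read with Feature Extraction 10.7.1.1. Per the file headers, the deposited processed signal is a linear intensity, background-subtracted and detrended within the array, and probe positions use build mm9; the multiplicative trend fit was 0 on control 1 and above 0 on the other 5. The authors also deposited log2 values, used as an alternative, whose column medians were 5.90 in all 6 columns, whose direction and scale matched the scanner signal (rank correlation 0.997 on control 1, rounding to 1 on the others), while their tool was not given in the sources used here. All arrays lay on 1 slide in 1 scan. The number of arrays limits the precision.

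Signals were taken to log2, outlier spots were left out, replicate spots averaged, and the array's 75th percentile over non-control spots subtracted. Probes were kept if well above background on at least 3 of 6 arrays, and a gene was its brightest kept probe by mean. Groups were compared with limma 3.58.1 (R 4.3.3) over all 26157 genes with Benjamini-Hochberg adjustment, and the script was tested on simulated data. The numbers 1 to 3 recur in both groups, and deviations from the group means correlated across genes at 0.53, 0.42 and 0.22 for numbers 1, 2 and 3, all above 0.1. The numbers were thus taken as pairs in the block fit and in the test of the number, while the main comparison of groups was unpaired. Other pairs ran from -0.48 to 0.33, and control 3 correlated more with irradiated 2 (0.33) than with irradiated 3. The pairing comes from the data, and a fit with the replicate number as a block was an alternative.

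Named genes are, per subfamily, the 3 with the smallest p for irradiation and the 2 with the smallest p for the number, plus a list of 28 genes; others are named where a count turns on them, after their values were seen. Some genes that the rule selects are left out of the text and figures and count only in totals. Members and lists (markers of neurons, interneurons, astrocytes, oligodendrocytes and their precursors, microglia and vascular cells, and channel partners) were chosen with earlier results of these data known. Alternatives covered normalisation, background correction, the filter, the probe rule, the block and each array left out.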

Additional observations from a re-analysis of the deposited data

How the results depend on the processing

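The count of 0 members past the adjusted threshold, for irradiation and for the array number, was 0 under each alternative run. For irradiation, all genes gave 2 calls with quantile normalisation or the deposited log2 table. For the number, all genes gave 159 calls as reported, 124 with quantile normalisation and 131 with the deposited log2 table. With 1 array left out in turn, the calls for the number over all genes ran from 0 to 506. With the replicate number as a block, 0 members passed, 3 met the uncorrected criterion (Kcnj6 higher, Kcnk15 and Kcnv2 lower) and the median difference was -0.07; Kcnd1 was lost and Kcnj6 gained, and the block changed no other call. That uncorrected count, 3 as reported, or 3.37% against 7.53% of all genes, was 8 with normexp (1 higher, 7 lower; 8.99% against 11.3%), 5 without a filter (5.21% against 9.15%), 5 when all 6 arrays had to be well above background (6.02% against 7.67%), 8 with each probe on its own (5 higher, 3 lower; 5.16% of probes against 8.23%), 0 without both arrays numbered 1 (against 3.39%), and 1 with each gene's 3′-most probe (1.12% against 7.39%), a choice made after the data were seen, as was leaving control 1 out of the differences of single probes. With 1 array left out in turn it ran from 0 to 13, and the median difference from -0.14 to -0.01. The 22 members with a small p for the number ran from 7 (7.87% against 8.98% of all genes) to 26 (29.2% against 17.4%). The split of uncorrected calls over all genes, 672 higher and 1298 lower, was 914 and 922 with the percentile taken over probes detected on all arrays, and 249 and 2711 with normexp. The median over all genes was -0.10, and -0.21 with normexp. Signal over background was weakest on control 1, where 64.9% of spots stood well above it. The cause of these changes was not tested.

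Some differences of named genes, none of which had passed the test, changed sign. With quantile normalisation, with or without the block, these were Hcn3 at 0.030, Kcna1 at 0.096, Kcna6 at 0.050, Kcnd3 at 0.020, Kcnip1 at 0.025, Kcnip3 at 0.0035, Kcnip4 at 0.084, Kcnj10 at 0.22, Kcnj13 at -0.040 and Kcnmb4 at 0.085. With the deposited log2 table they were Hcn3 at 0.031, Kcna1 at 0.096, Kcna6 at 0.050, Kcnd3 at 0.020, Kcnip1 at 0.025, Kcnip3 at 0.0044, Kcnip4 at 0.084, Kcnj10 at 0.22, Kcnj13 at -0.039 and Kcnmb4 at 0.085. With normexp they were Hcn3 at 0.0016, Kcnh7 at -0.25, Kcnip4 at 0.017, Kcnj11 at -0.045, Kcnj13 at -0.084 and Kcnk6 at -0.17, and with the percentile over detected probes Hcn3 at 0.033 and Kcnip4 at 0.031. With the mean of a gene's probes they were Amigo1 at 0.072, Dpp10 at 0.053, Dpp6 at 0.59, Hcn3 at 0.10, Kcnc1 at 0.28, Kcnh1 at 0.21, Kcnh2 at 0.0034, Kcnk6 at -0.55, Kcnma1 at -0.14, Kcnmb4 at 0.30, Kcnt1 at 0.25 and Kcnv1 at -0.30. With the 3′-most probe they were Hcn3 at 0.24, Kcnc1 at 0.22, Kcnh1 at 0.56 and Kcnq1 at 0.13, and without both arrays numbered 1 Cntnap2 at 0.035, Kcnab1 at -0.056, Kcnip1 at 0.064, Kcnip4 at 0.035, Kcnj13 at -0.14, Kcnj8 at 0.13, Kcnn4 at 0.0042 and Kcnt1 at 0.097. With 1 array left out in turn, differences ran for Dpp10 from -0.23 to 0.032, Hcn3 from -0.19 to 0.089, Kcna1 from -0.17 to 0.0078, Kcna5 from -0.53 to 0.13, Kcnab1 from -0.17 to 0.20, Kcnab2 from -0.16 to 0.017, Kcnab3 from -0.29 to 0.48, Kcnd2 from -0.11 to 0.48, Kcnh1 from -0.43 to 0.048, Kcnh2 from -0.58 to 0.055, Kcnh7 from -0.29 to 0.44 and Kcnip1 from -0.15 to 0.026. They ran for Kcnip4 from -0.25 to 0.22, Kcnj10 from -0.36 to 0.14, Kcnj13 from -0.56 to 0.54, Kcnj16 from -0.17 to 0.062, Kcnj5 from -0.70 to 0.042, Kcnj8 from -1.20 to 0.60, Kcnk13 from -0.48 to 0.18, Kcnk6 from -0.23 to 0.62, Kcnma1 from -0.041 to 0.20, Kcnmb4 from -0.17 to 0.013, Kcnn2 from -0.062 to 0.25, Kcnn4 from -0.45 to 0.23, Kcnq1 from -0.60 to 0.075, Kcnt1 from -0.38 to 0.23, Kcnv1 from -0.25 to 0.43 and Pex5l from -0.22 to 0.33.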

Other observations

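Kcnj13 and Kcne2, both channel subunits of the choroid plexus epithelium, differed between irradiated arrays 2 and 3 more than most members, and they were chosen after their values were seen. The log2 level of Kcnj13 was -2.97, -1.64 and -1.88 on controls 1 to 3 and -2.44, -2.99 and -0.80 on irradiated 1 to 3. The level of Kcne2 was -3.27, -4.06 and -3.77 on the controls and -3.93, -5.35 and -2.51 on the irradiated arrays. Ttr, the transthyretin gene and the most abundant message of that epithelium, had levels of 4.03, 4.27 and 3.68 on the controls and 3.83, 2.30 and 5.05 on the irradiated arrays. All 3 genes were lowest on irradiated 2 and highest on irradiated 3. A list of 6 choroid plexus genes, drawn up after the values were seen, had a mean level relative to the 6-array mean of -0.03, 0.18 and -0.15 on the controls and 0.03, -0.86 and 0.83 on the irradiated arrays. In that list Ttr, Folr1 and Slc4a5 were lowest on irradiated 2 and highest on irradiated 3. Clic6 and Otx2 were lowest on irradiated 2 but highest on irradiated 1, and Aqp1 was highest on irradiated 3 but lowest on control 1. Between the groups Kcnj13 differed by 0.08 (95% interval -1.34 to 1.503) and Kcne2 by -0.23 (-1.78 to 1.32). The part of this cell type in those levels was not tested.

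Kcnk6 was a member whose probes disagreed in the other direction. Its brighter probe differed by 0.29 and its upstream probe by -1.39 (95% interval -3.32 to 0.54). That upstream probe was well above background on 2 of 3 controls and on 1 of 3 irradiated arrays.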
